A study of Rattus norvegicus with 8 samples.

Results

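The autophagy machinery is described here in primary oligodendrocyte precursor cells (OPCs), the glial progenitors from which oligodendrocytes and so myelin arise, after loss of oxygen and glucose (OGD), which imitates ischaemia in a dish. Members were all rows of the expression table whose symbol belongs to the Atg, Ulk1 to Ulk3, Gabarap, Map1lc3 or Wipi1 and Wipi2 series, together with named partners such as Becn1, Uvrag, Sqstm1 and Tfeb. This gave 44 genes of 32662, each on 1 row. Of these, 42 had at least 1 FPKM (fragments scaled to gene length and library total, a level per length) in at least 4 of 8 libraries and were tested. The remaining pair, Atg9b and Calcoco1, lay at or near 0.

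Autophagy encloses cytoplasm in a double membrane and delivers it to the lysosome. The ULK kinase complex starts the process, a class III PI3-kinase complex built on Beclin 1 marks the membrane with PI3P, and ATG9, ATG2 and WIPI proteins supply and shape it. A conjugation system then links small ATG8 proteins (LC3 and GABARAP) to the lipid, where receptors such as p62 (Sqstm1) bring cargo. Low energy, amino acid shortage and hypoxia are known triggers, and the process is largely switched by phosphorylation and lipid conjugation, which RNA levels do not report.

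The cells came from the cerebral cortex of Sprague Dawley rats aged 1 to 2 days. They were the floating cells of mixed glial cultures that had been kept in 20% serum, and all samples then had 4 to 5 days in Neurobasal medium with 2% B27, 2 mM glutamine, 1% antibiotic and the growth factors FGF and PDGF at 10 ng/ml. The 4 OGD libraries came from cells held without oxygen and glucose for 6 h. The other 4 are labelled Control, with no further description, and carry the same treatment text. No genetic change is recorded for either group. Whether the 4 samples of a group were grown apart is not stated, so the p-values below cover the spread among these samples alone, and that spread may be technical.

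The total number of fragments is unknown, because the table holds no counts. Steps between low values gave relative depths of 0.815 to 1.17 with control replicate 1 set to 1. Transcripts of the mitochondrial genome took 25.1% to 27.9% of summed FPKM in control libraries. In OGD libraries 1 to 4 they took 29.6%, 30.4%, 23.4% and 20.4%, at relative depths of 0.929, 0.815, 1.15 and 1.17. OGD libraries 1 and 2 thus differed from 3 and 4 in both measures. The part of this difference in the values of single genes was not tested. OPC markers were abundant, with a sum of 2177 to 2302 FPKM over 7 genes in control and 1410.5 to 1619 FPKM in OGD (5 of the 7 fell), and Cldn5, an endothelial marker, was at 0 in every library. Microglial markers were present and lower in OGD: 11 of 12 fell, with a median log2 change of -1.20, and their sum was 271 to 422 FPKM in control and 97.7 to 172 FPKM in OGD. Of these, Cx3cr1 passed the filter through the control libraries alone, and P2ry12 through them and OGD replicate 2. The falls of both describe low genes. Falling shares were 71.4% of OPC and 91.7% of microglial markers. Over all tested genes 26.8% fell and 22.7% rose by the same test. The other marker lists were mixed. Mature oligodendrocyte markers summed to 206 to 332 FPKM in control and 113 to 143 FPKM in OGD, mostly Mbp; Mbp and Mag fell, Mog rose and Mobp did not pass. Neuronal markers summed to 53.6 to 62.2 and 78.6 to 91.7 FPKM, mostly Tubb3, with Tubb3 and Syt1 rising, Snap25 falling and 2 not passing. Astrocyte markers summed to 23.5 to 29.0 and 11.7 to 22.9 FPKM, with 2 of 4 tested (50%) falling and none rising. Gfap, among those falling, is a low gene that passed the filter through the control libraries alone. The part of these cell types in the changes below was not tested, and in bulk RNA fewer cells of a type cannot be told apart from less RNA per cell.

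The autophagy genes moved by small amounts and in both directions. By the test, 10 of the 42 measured members rose and 9 fell, and the other 23 were not called (limma on log2(FPKM + 1), Benjamini-Hochberg adjusted p under 0.05 over all 11149 tested genes). The share called was 45.2%, beside 49.5% of all tested genes. The rising share was 23.8% against 22.7% of all genes, and the falling share 21.4% against 26.8%. These shares lie near the background, so the list as a whole did not stand out by its number of calls. Its median log2 change was -0.02 beside -0.04 over all tested genes. The median size of change, whatever its sign, was 0.26 for the members and 0.28 for all genes. None of the 42 passed the test with a log2 change of 1 or more in either direction, beside 4.19% of all tested genes. Both figures hold for the log2(FPKM + 1) scale. With 0.1 in place of 1 added to each FPKM, the low gene Atg10 kept its call at a log2 change of -1.04. Control and OGD libraries did not overlap for 15 members (9 with OGD above, 6 with OGD below), or 35.7%, beside 44.7% of all tested genes.

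**Figure D1:**
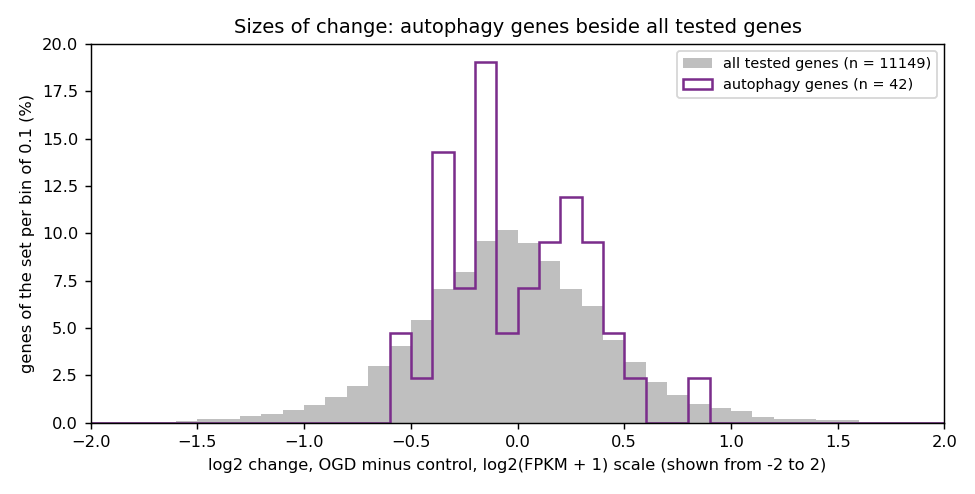
Histogram of log2 changes (OGD minus control, log2(FPKM + 1) scale, x axis, bins of 0.1) as a percentage of each set (y axis): grey bars are the 11149 tested genes, the purple outline the 42 tested autophagy genes. The autophagy genes lie between -0.53 and 0.86, inside the range shown for all genes.

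By step of the pathway, genes of membrane supply mostly rose (4 of 6, 66.7%) and those of the ATG8 proteins mostly fell (4 of 5, 80%). The PI3-kinase complex had 2 rising and 2 falling members (33.3% each). Over all tested genes 22.7% rose and 26.8% fell. No cargo receptor, fusion gene or transcription factor of the list passed the test. The groups are small, and no test compared them with other genes.

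**Figure D2:**
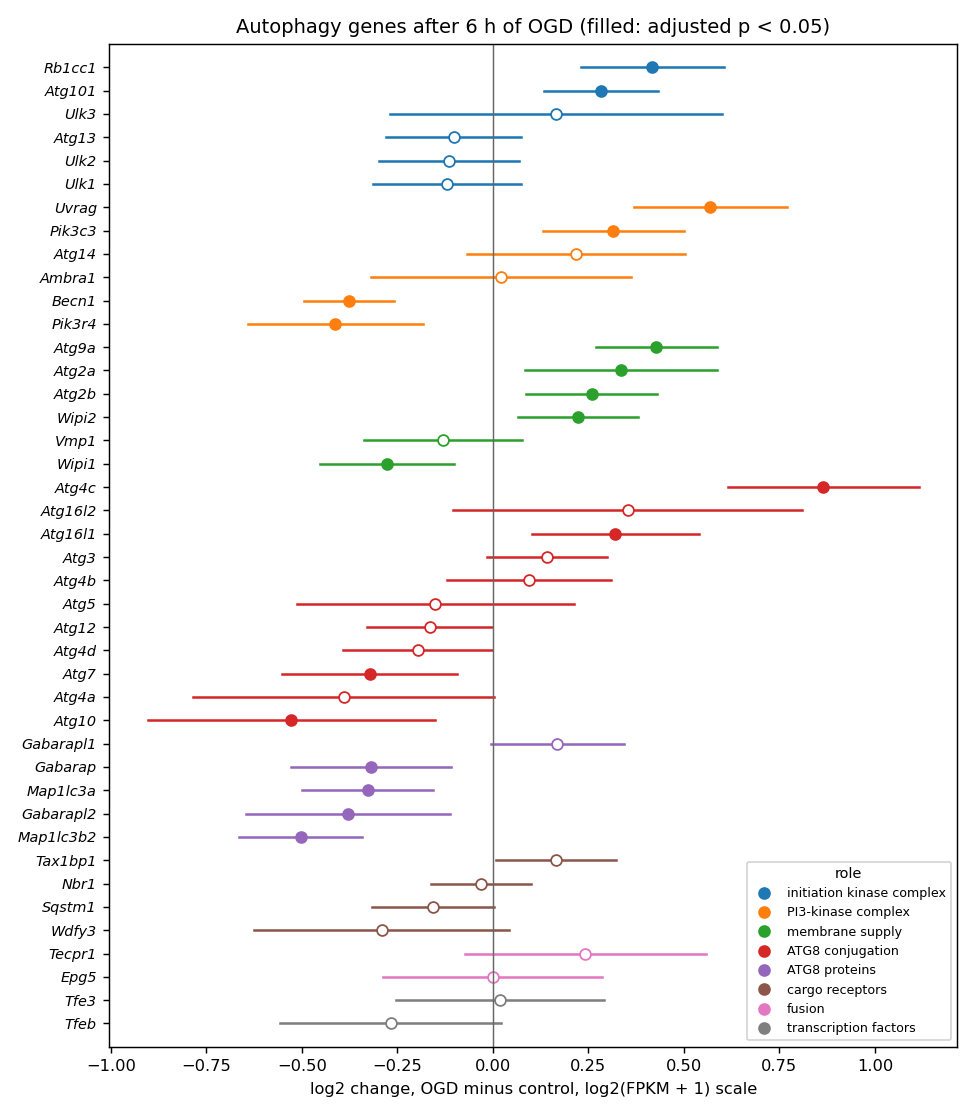
Log2 change (x axis, OGD minus control, log2(FPKM + 1) scale) of each tested member (y axis), coloured by role; points are the fitted change, lines its 95% confidence interval, and filled points passed the test (adjusted p under 0.05). Filled points lie right of 0 for membrane supply except Wipi1, and left of 0 for 4 of the 5 ATG8 proteins.

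In the initiation complex 2 of 6 genes rose (33.3%, beside 22.7% of all tested genes), neither of them a kinase, and none fell (beside 26.8%). Rb1cc1 (ENSRNOG00000006833), which encodes the scaffold FIP200, was at 8.69, 11.1, 10.6 and 9.77 FPKM in control libraries 1 to 4 and at 13.5, 13.1, 14.6 and 13.6 FPKM in OGD libraries 1 to 4. Every OGD library lay above every control library, and Rb1cc1 rose by 0.42 on the log2 scale (SE 0.09; adjusted p = 0.0022, limma). Atg101 (ENSRNOG00000007756), a partner of ATG13 in the complex, was at 20.8, 22.2, 19.8 and 19.5 FPKM in control and 26.8, 24.5, 25.2 and 24.4 FPKM in OGD, again without overlap, and rose by 0.28 on the log2 scale (SE 0.07; adjusted p = 0.00529, limma). Both calls held under all 16 alternatives.

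The kinase genes and Atg13 did not pass the test. Ulk1, the principal initiating kinase, was at 14.5 ± 0.628 FPKM in control and 13.3 ± 1.55 FPKM in OGD (SD, n = 4 each), a log2 change of -0.12 with a 95% confidence interval of -0.31 to 0.07. Ulk2, its close relative, was at 10.9 ± 0.494 and 9.99 ± 0.919 FPKM (log2 change -0.12, interval -0.30 to 0.07). Ulk3, a more distant relative, was low, from 0.824 to 1.95 FPKM in control and 1.12 to 2.46 FPKM in OGD. Atg13, the adaptor between kinase and scaffold, was at 19.8, 23.4, 19.8 and 22.5 FPKM in control and 20.1, 21.6, 18.98 and 18.5 FPKM in OGD. Its groups overlapped (log2 change -0.10, interval -0.28 to 0.07). The intervals of Ulk1, Ulk2 and Atg13 each ended at 0.07 on the log2 scale, and none passed the test (limma, adjusted p = 0.28, 0.273 and 0.31).

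The PI3-kinase complex changed in opposite directions within the same assembly. Its catalytic subunit Pik3c3 (VPS34) rose while Pik3r4 (VPS15), the regulatory subunit it binds, fell. Uvrag, which defines the form of the complex that acts on endosomes and late autophagosomes, rose while the shared core subunit Becn1 fell. Becn1 (ENSRNOG00000020513) was at 45.5, 45.00, 44.00 and 45.8 FPKM in control libraries and 34.9, 34.3, 34.2 and 34.5 FPKM in OGD libraries. Both groups were tight and far apart, with a log2 change of -0.38 (SE 0.05; adjusted p = 0.000222, limma). Uvrag (ENSRNOG00000016206) was at 7.47, 7.89, 7.91 and 7.396 FPKM in control and 10.95, 10.8, 11.98 and 13.9 FPKM in OGD, highest in OGD replicate 4. The rise was 0.57 on the log2 scale (SE 0.09; adjusted p = 0.000485, limma), with no overlap.

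Pik3c3 (ENSRNOG00000017840) was at 7.52, 7.38, 8.27 and 7.61 FPKM in control and 9.47, 8.92, 10.2 and 10.8 FPKM in OGD, and Pik3r4 (ENSRNOG00000013669) at 6.66, 7.15, 5.699 and 6.396 FPKM in control and 3.95, 4.39, 5.22 and 4.94 FPKM in OGD. Neither gene's groups overlapped. The log2 changes were 0.32 and -0.41 (SE 0.08 and 0.10; adjusted p = 0.00923 and 0.00727, limma). All 4 calls of this complex held under all 16 alternatives. Within single libraries, where the scaling of the library cancels, the ratio of Pik3c3 to Pik3r4 was 1.13, 1.03, 1.45 and 1.19 in control and 2.40, 2.03, 1.95 and 2.18 in OGD. Uvrag stood to Becn1 at 0.161 to 0.180 in control and 0.313 to 0.404 in OGD. In both pairs every OGD ratio exceeded every control ratio. This had to follow, because in OGD the first gene of each pair lay wholly above control and the second wholly below. The pairs were chosen after the values were seen, so the ratios are given without a test.

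Atg14, the subunit of the early autophagosome-forming version of the complex, was at 2.72, 2.76, 3.11 and 2.88 FPKM in control and 4.51, 3.86, 2.91 and 2.89 FPKM in OGD. OGD replicates 1 and 2 were above all control libraries and replicates 3 and 4 were inside their range (limma, adjusted p = 0.187). The ratio of Uvrag to Atg14 accordingly overlapped, at 2.54 to 2.86 in control and 2.43 to 4.82 in OGD. Ambra1, a scaffold that regulates Beclin 1 and ULK1, was at 13.5, 14.9, 11.3 and 11.2 FPKM in control and 10.8, 18.3, 12.5 and 10.9 FPKM in OGD. OGD replicate 2 was the highest of all 8 libraries, and the change did not pass (log2 change 0.02, interval -0.32 to 0.36).

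**Figure D3:**
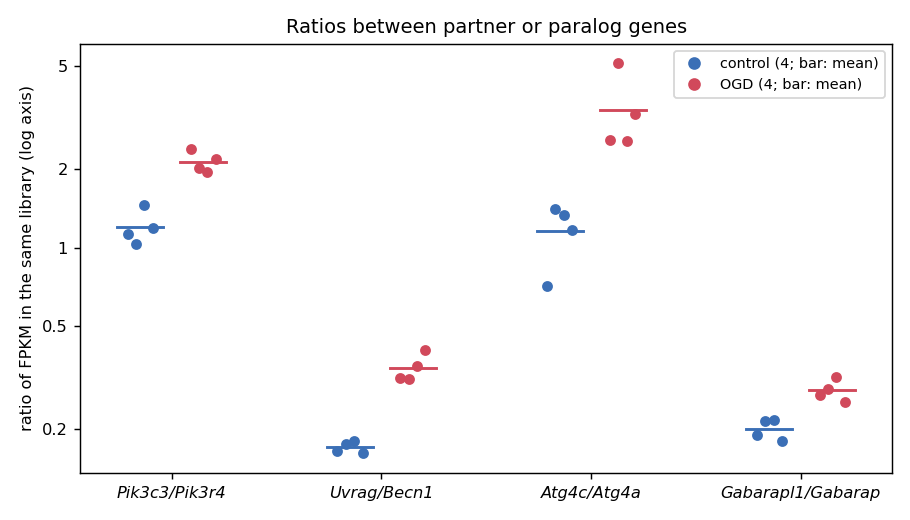
Ratio of FPKM between 2 genes in the same library (y axis, log scale) for 4 pairs (x axis); blue points are the 4 control and red points the 4 OGD libraries, and bars are group means. In each pair every OGD library lies above every control library, for example 1.95 to 2.40 against 1.03 to 1.45 for Pik3c3 to Pik3r4. The pairs were chosen after the values were seen, and Uvrag to Atg14, which overlapped, is not drawn.

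The promoters of Pik3c3 and Pik3r4 are shown because these partners moved apart. They are RefSeq promoters of build GRCr8, from 250 bases before to 50 bases after the gene's start, 5′ to 3′ on the gene's strand. Capitals mark matches, on either strand, to ACGTG, the core bound by hypoxia-inducible factors, to CACGTG, the E-box within the element bound by TFEB and TFE3, which contains ACGTG, or to TGATGNAA, an element bound by ATF4. Pik3c3 lies at chr18:22119607-22119906 (plus strand) and Pik3r4 at chr8:115146437-115146736 (plus strand).
Pik3c3: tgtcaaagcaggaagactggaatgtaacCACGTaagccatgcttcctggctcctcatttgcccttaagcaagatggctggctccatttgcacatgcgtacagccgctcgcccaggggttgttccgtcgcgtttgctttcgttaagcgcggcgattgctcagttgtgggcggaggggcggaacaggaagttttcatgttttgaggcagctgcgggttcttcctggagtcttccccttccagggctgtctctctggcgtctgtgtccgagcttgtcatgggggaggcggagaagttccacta
Pik3r4: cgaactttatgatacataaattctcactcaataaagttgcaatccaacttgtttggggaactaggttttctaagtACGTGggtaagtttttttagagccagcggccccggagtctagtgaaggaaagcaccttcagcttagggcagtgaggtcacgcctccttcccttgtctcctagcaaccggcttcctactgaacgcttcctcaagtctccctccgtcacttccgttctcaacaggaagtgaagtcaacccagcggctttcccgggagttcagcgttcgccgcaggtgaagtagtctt
Each window held 1 ACGTG match, at position -222 for Pik3c3 and -175 for Pik3r4, counted from the gene's start, and no CACGTG or TGATGNAA. Whether these motifs have a part in either change was not tested. Symbols matched a promoter for 39 of the 44 members. ACGTG was in 12 of them (30.8%) and in 19.7% of all 27457 promoters of this length (26.2% of those of tested genes). It was in 2 of the 8 matched members that rose, 2 of the 6 that fell and 8 of the 23 that did not pass. CACGTG was in 4 members (Atg3, Atg5, Atg14 and Epg5), none of which rose or fell by the test, or 10.3% of the 39, beside 6.65% of all promoters and 9.69% of those of tested genes. TGATGNAA was in none of the 39, beside 3.82% and 1.68%. A match is only a description of the letters in this window.

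Of the 6 tested membrane supply genes 4 rose (66.7%, beside 22.7% of all tested genes), Wipi1 fell and Vmp1 did not pass. Atg9a (ENSRNOG00000018975), the transmembrane protein of the vesicles that seed the autophagosome, was the most abundant of the group, at 21.9, 21.04, 20.3 and 20.95 FPKM in control and 29.9, 31.1, 28.00 and 25.8 FPKM in OGD. Every OGD library lay above every control library, and the rise was 0.43 on the log2 scale (SE 0.07; adjusted p = 0.000658, limma). Atg2b, a lipid transfer protein that feeds the growing membrane, was at 6.65, 7.71, 7.17 and 7.39 FPKM in control and 8.44, 9.03, 8.95 and 8.904 FPKM in OGD, without overlap (log2 change 0.26, limma adjusted p = 0.0177). Its paralog Atg2a was at 7.25 ± 0.777 and 9.44 ± 1.41 FPKM (SD, n = 4 each; adjusted p = 0.0309, limma), with OGD replicate 4 inside the control range.

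The PI3P readers Wipi1 and Wipi2 went in opposite directions. Wipi2, which brings ATG16L1 to the membrane, rose from 13.1 to 13.4 FPKM in control to 14.6 to 17.1 FPKM in OGD (log2 change 0.22, limma adjusted p = 0.023). Wipi1 was at 11.1, 9.34, 10.3 and 9.43 FPKM in control and 8.105, 8.25, 8.22 and 7.79 FPKM in OGD, and fell by 0.28 on the log2 scale (SE 0.08; adjusted p = 0.0143, limma) with no overlap. Vmp1, an ER membrane protein needed for autophagosome formation, was at 18.5, 16.04, 16.6 and 18.02 FPKM in control and 12.99, 16.5, 17.2 and 16.4 FPKM in OGD, lowest in OGD replicate 1, and did not pass (adjusted p = 0.268). Atg9b, the paralog of Atg9a, was listed at 0 in 7 libraries and at 0.0495 FPKM in control replicate 3. The rises of Atg2a and Wipi2 were the least stable of the group. Atg2a lost its call without control replicates 1 or 3 or OGD replicates 1 or 2 and with no filter on low values (adjusted p up to 0.0839). Wipi2 lost it without control replicates 3 or 4 or OGD replicate 4 and with median-centring (up to 0.0575).

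On the log2(FPKM + 1) scale, the conjugation genes held the largest change of all members, that of the protease gene Atg4c. The ratio of OGD to control means was 0.476 for the low gene Atg10, whose change this scale shrinks more. Of 11 genes 2 rose (Atg4c and Atg16l1), 2 fell (Atg7 and Atg10) and 7 did not pass. The rising and the falling share were 18.2% each, beside 22.7% and 26.8% of all tested genes. ATG4 proteases trim ATG8 proteins before conjugation and release them from lipid afterwards. Atg4c (ENSRNOG00000008767) was at 3.43, 3.67, 5.01 and 4.56 FPKM in control and 7.53, 8.42, 8.504 and 8.96 FPKM in OGD. All OGD libraries were well above all control libraries, with mean levels of 4.17 ± 0.743 and 8.35 ± 0.597 FPKM (SD, n = 4 each), a log2 change of 0.86 (SE 0.11; adjusted p = 0.000138, limma) and a ratio of the means of 2.00. The call held under all 16 alternatives.

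The other ATG4 genes did not pass. Atg4a was at 4.84, 2.601, 3.75 and 3.91 FPKM in control and 2.899, 1.65, 3.298 and 2.74 FPKM in OGD, a log2 change of -0.39 that did not pass (limma, adjusted p = 0.0924). Without control replicate 2 Atg4a passed as lower (adjusted p = 0.0324). The ratio of Atg4c to Atg4a was 0.709, 1.41, 1.34 and 1.17 in control and 2.60, 5.11, 2.58 and 3.26 in OGD. Atg4b, the most abundant of the 4 proteases, was at 17.5 ± 1.67 and 18.8 ± 2.41 FPKM (log2 change 0.09, interval -0.12 to 0.31), and Atg4d at 9.57 ± 0.714 and 8.22 ± 0.689 FPKM (log2 change -0.20, interval -0.39 to -0.00). In control cells Atg4c was at about the level of Atg4a, and in OGD at about that of Atg4d, while Atg4b stayed above both. Atg4d passed without control replicate 2 (as lower, adjusted p = 0.0486).

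Among the enzymes, Atg7, the activating enzyme of both conjugation branches, fell. It was at 7.97, 9.36, 8.08 and 10.02 FPKM in control and 7.45, 7.19, 7.105 and 5.78 FPKM in OGD, lowest in OGD replicate 4, without overlap (log2 change -0.32, SE 0.10; adjusted p = 0.0239, limma). The call was lost without control replicates 2 or 4 or OGD replicate 4 and with rescaling outside mitochondrial genes (adjusted p up to 0.0751). Atg10, which conjugates ATG12 to ATG5, was near the filter at 1.004, 1.17, 1.72 and 1.51 FPKM in control and 0.649, 0.369, 0.4396 and 1.11 FPKM in OGD. It passed the filter through the control libraries and OGD replicate 4, so its fall (log2 change -0.53, adjusted p = 0.0243) is a description of a low gene, and it was lost under 5 alternatives (without control replicates 3 or 4 or OGD replicates 2 or 3, and with quantile normalization; adjusted p up to 0.0829).

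Atg16l1, which places the conjugation complex on the membrane, was at 5.51, 6.04, 5.33 and 5.27 FPKM in control and 7.998, 7.87, 6.203 and 6.701 FPKM in OGD, and rose by 0.32 on the log2 scale (limma, adjusted p = 0.0195). OGD replicates 1 and 2 were higher than 3 and 4, and all lay above control. Without control replicates 3 or 4 or OGD replicates 1 or 2 the call was lost (adjusted p up to 0.0592). Its relative Atg16l2 was low, at 0.789 to 2.27 FPKM in control and 1.57 to 3.19 FPKM in OGD.

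The most abundant conjugation genes did not pass. Atg3, the enzyme that transfers ATG8 proteins to lipid, was at 35.4, 32.5, 35.3 and 37.9 FPKM in control and 40.8, 35.4, 39.1 and 40.9 FPKM in OGD (log2 change 0.14, interval -0.02 to 0.30). Atg12, the ubiquitin-like partner of ATG5, was at 33.6, 31.7, 33.8 and 32.8 FPKM in control and 28.7, 28.1, 27.03 and 33.6 FPKM in OGD. OGD replicate 4 was in the control range and the other 3 were below it, and without that replicate Atg12 passed as lower (adjusted p = 0.0115 against 0.0869 with all libraries). Atg5 was at 24.4, 26.3, 24.01 and 26.1 FPKM in control and 14.4, 26.8, 26.2 and 25.5 FPKM in OGD, with every library but OGD replicate 1 at 24.01 FPKM or above.

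The promoters of Atg4c and Atg3 are shown for comparison with the same marking. Among the members, Atg4c had the largest change on the log2(FPKM + 1) scale, and Atg3 the most E-box matches. Atg4c lies at chr5:118982449-118982748 (plus strand) and Atg3 at chr11:69159231-69159530 (minus strand), both GRCr8.
Atg4c: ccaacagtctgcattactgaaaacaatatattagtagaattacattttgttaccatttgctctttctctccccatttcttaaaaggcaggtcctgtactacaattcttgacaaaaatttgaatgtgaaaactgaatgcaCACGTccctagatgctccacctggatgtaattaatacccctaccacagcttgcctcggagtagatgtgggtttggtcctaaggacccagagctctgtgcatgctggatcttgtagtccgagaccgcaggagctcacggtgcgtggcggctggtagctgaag
Atg3: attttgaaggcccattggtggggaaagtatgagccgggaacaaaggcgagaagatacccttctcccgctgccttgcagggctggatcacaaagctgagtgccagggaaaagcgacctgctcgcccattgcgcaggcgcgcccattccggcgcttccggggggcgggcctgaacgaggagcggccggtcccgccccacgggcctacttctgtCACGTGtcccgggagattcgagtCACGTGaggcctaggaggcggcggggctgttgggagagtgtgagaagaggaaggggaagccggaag
The Atg4c window held 1 ACGTG match, at position -111, and no E-box. The Atg3 window held CACGTG at positions -39 and -16. The part of these motifs in the levels of either gene was not tested.

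The ATG8 genes hold the most abundant pair of all members, Gabarap and Map1lc3b2, and 4 of the 5 fell (80%, beside 26.8% of all tested genes). In the order of control levels they were Gabarap, Map1lc3b2, Map1lc3a, Gabarapl1 and Gabarapl2, and neighbours in this order did not overlap in control libraries. In OGD libraries Gabarapl1 had the higher mean of the neighbours Map1lc3a and Gabarapl1, and their ranges overlapped. Map1lc3b2 (ENSRNOG00000017905) was at 165, 144, 157 and 136 FPKM in control and 107, 98.2, 111 and 106 FPKM in OGD, with no overlap, and fell by 0.50 on the log2 scale (SE 0.07; adjusted p = 0.000271, limma). The table names this row Map1lc3b2, a symbol that RefSeq (GRCr8) gives to a pseudogene, beside the protein-coding Map1lc3b. LC3B copies are near-identical, so which copy the fragments came from is uncertain. Map1lc3a, which encodes LC3A, was at 59.7, 50.7, 52.5 and 49.8 FPKM in control and 39.4, 39.99, 46.4 and 42.8 FPKM in OGD, likewise without overlap (log2 change -0.33, SE 0.08; adjusted p = 0.00518, limma).

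The GABARAP branch was mixed. Gabarap (ENSRNOG00000017417) was at 236, 192, 202 and 213 FPKM in control and 165, 150.0, 162 and 200.2 FPKM in OGD. OGD replicate 4 was above control replicate 2, so the groups overlapped, and the fall was 0.32 on the log2 scale (SE 0.10; adjusted p = 0.0166, limma). Gabarapl2, also called GATE-16, was at 24.2, 18.6, 21.8 and 19.7 FPKM in control and 14.5, 16.96, 13.2 and 19.6 FPKM in OGD (log2 change -0.38, limma adjusted p = 0.0229), again overlapping through OGD replicate 4. It lost its call without control replicates 1 or 3 or OGD replicates 1 or 3 (adjusted p up to 0.0645). Gabarapl1, a transcript known to rise with starvation in other cells, was at 44.8, 41.3, 43.7 and 38.3 FPKM in control and 44.5, 43.03, 51.2 and 50.99 FPKM in OGD, the one ATG8 gene with a higher OGD mean. Its log2 change of 0.17 did not pass (adjusted p = 0.0994), but passed as a rise with quantile normalization and with rescaling outside mitochondrial genes (adjusted p down to 0.0332). The 4 falls kept their direction and call under every scaling tried. Microglial markers moved in these libraries too (median -1.20), and their part in the falls was not tested.

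Summed over the 5 genes, ATG8 transcripts were at 530, 448, 477 and 457 FPKM in control and 370, 348, 384 and 420.0 FPKM in OGD. Every OGD library was below every control library. Gabarap held 44.1% ± 1.87 of the sum in control and 44.3% ± 2.42 in OGD, and Map1lc3a 11.1% ± 0.209 and 11.1% ± 0.852 (SD, n = 4 each). Gabarapl1 went from 8.40% to 9.24% in control libraries to 12.02% to 13.3% in OGD libraries, and Map1lc3b2 from 29.8% to 32.9% down to 25.3% to 29.0%. Neither of these ranges overlapped between groups. Gabarapl2 held 4.16% to 4.56% in control and 3.43% to 4.87% in OGD. These shares carry no test.

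**Figure D4:**
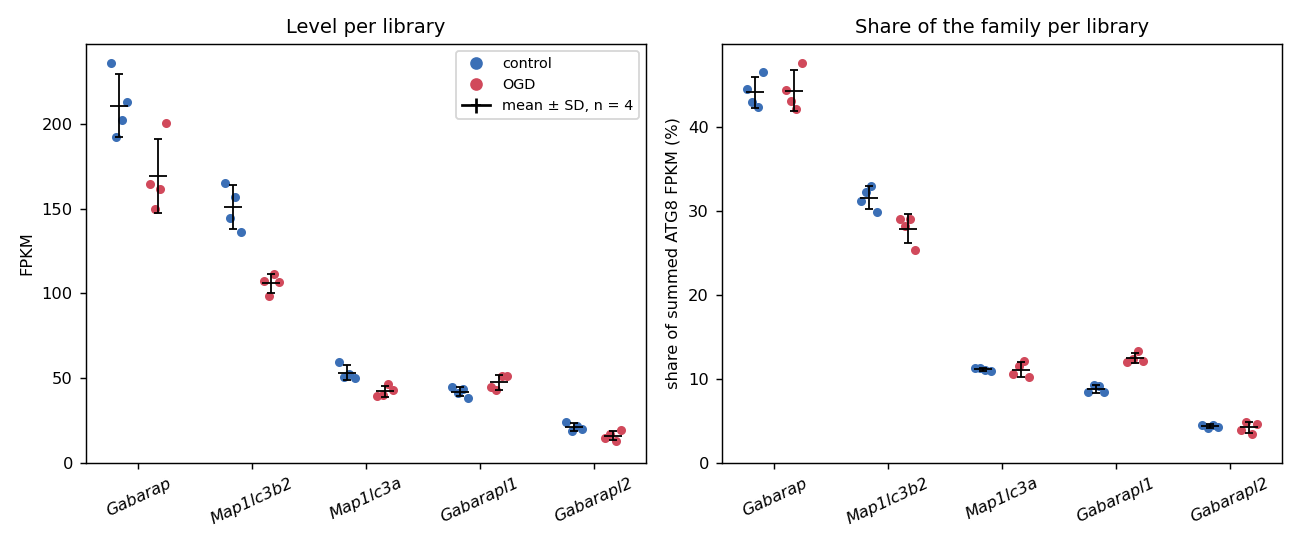
Left, FPKM (y axis) of the 5 ATG8 genes (x axis) in each control (blue) and OGD (red) library; right, each gene's share of the summed ATG8 FPKM (%). Black marks are mean ± SD, n = 4. Map1lc3b2 fell from 136 to 165 FPKM to 98.2 to 111 FPKM, and the share of Gabarapl1 was 12.02% to 13.3% in OGD and at most 9.24% in control.

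Cargo receptors did not pass the test (0 of 4 tested; limma, 1 at an unadjusted p under 0.05). Sqstm1 (p62), which binds ubiquitinated cargo and is itself degraded by autophagy, was at 74.3, 60.04, 68.2 and 67.2 FPKM in control and 57.5, 58.9, 60.3 and 64.3 FPKM in OGD. The groups overlapped, and the log2 change was -0.16 (interval -0.32 to 0.00; adjusted p = 0.0954, limma). Without control replicate 2 Sqstm1 passed as lower (0.0310). Nbr1, a p62 relative, was at 56.4, 58.9, 59.2 and 58.4 FPKM in control and 55.3, 53.8, 58.1 and 60.8 FPKM in OGD (log2 change -0.03, interval -0.16 to 0.10). Tax1bp1, another ubiquitin-binding receptor, was at 46.3 ± 2.498 and 52.1 ± 4.27 FPKM (SD, n = 4 each), and its log2 change of 0.16 did not pass (adjusted p = 0.0776, limma). It passed as a rise with quantile normalization and with rescaling outside mitochondrial genes (adjusted p down to 0.0304). Wdfy3 (ALFY), a large adaptor for aggregates, was at 18.2 ± 3.09 and 14.8 ± 2.87 FPKM (SD, n = 4 each), and passed as lower without control replicate 1 (adjusted p = 0.0320). Calcoco1, a relative of the receptor NDP52, was listed at 0 in all control libraries and in OGD replicate 4, and at 0.107, 0.0608 and 0.0868 FPKM in OGD replicates 1 to 3, all below the filter.

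None of the fusion genes and transcription factors among the members passed (0 of 4; limma, 0 at an unadjusted p under 0.05). Tecpr1, which helps autophagosomes join lysosomes, was at 8.82, 6.33, 5.74 and 5.92 FPKM in control and 9.07, 9.095, 7.82 and 6.300 FPKM in OGD. Control replicate 1 stood with the OGD libraries, and without it Tecpr1 passed as higher (adjusted p = 0.0367 against 0.185). Epg5, a tether of the same step, was at 3.68, 5.096, 4.89 and 4.34 FPKM in control and 5.08, 5.22, 4.22 and 3.53 FPKM in OGD (interval -0.29 to 0.29). Tfeb and Tfe3 encode the factors that switch on lysosomal and autophagy genes when they enter the nucleus. Tfe3 was at 11.5, 8.27, 9.69 and 8.11 FPKM in control and 10.00, 9.02, 11.03 and 7.96 FPKM in OGD (interval -0.25 to 0.29), and Tfeb at 3.595, 3.42, 3.18 and 2.64 FPKM in control and 1.901, 3.12, 2.52 and 2.496 FPKM in OGD (interval -0.56 to 0.02). The groups overlapped for both, with Tfe3 the higher of the pair in every library.

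**Figure D5:**
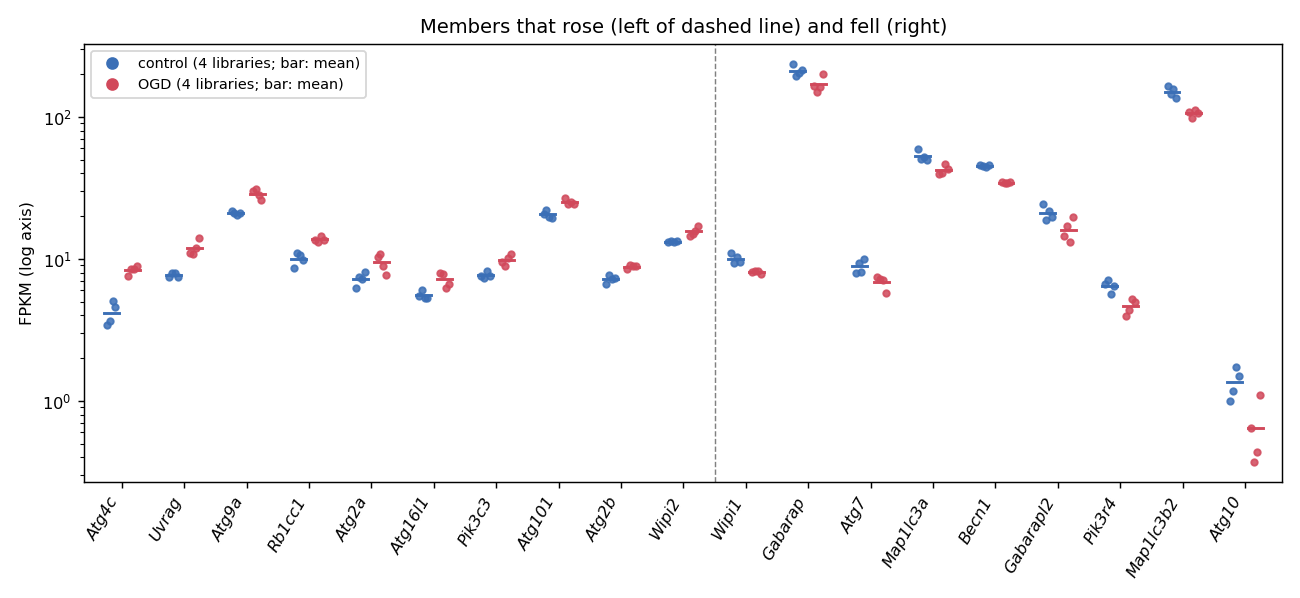
FPKM (y axis, log scale) of the 19 members that passed the test (x axis), the 10 that rose left of the dashed line and the 9 that fell right of it; blue points are the 4 control and red points the 4 OGD libraries, and bars are group means. The highest value among rising members is 31.1 FPKM (Atg9a), and the falling ATG8 genes Gabarap and Map1lc3b2 lie above 98 FPKM in every library.

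Pathway genes outside the member list were read from a list of 40, of which 38 matched a row and 35 were tested. Of these 6 rose, 11 fell and 18 did not pass, with a median log2 change of -0.08 beside -0.04 over all tested genes. The share called was 48.6% (17.1% rose and 31.4% fell), near the 49.5% (22.7% and 26.8%) of all tested genes. Of 12 fusion genes 7 fell (58.3%) and 2 rose (16.7%), beside the same 26.8% and 22.7%. These subgroups are small, and none was tested against other genes. Vps11 and Vps16, core subunits of the HOPS tether that joins autophagosomes to lysosomes, both rose. Vps11 went from 15.2 ± 0.695 to 25.7 ± 1.79 FPKM and Vps16 from 15.4 ± 1.27 to 21.1 ± 1.18 FPKM (SD, n = 4 each; log2 changes 0.72 and 0.43). Vps39 and Vps41, the subunits particular to HOPS, named after their values were seen, fell by 0.21 and 0.25 on the log2 scale, and Vps18 and Vps33a did not pass. The call of Vps39 was lost under 6 alternatives (without control replicates 2, 3 or 4 or OGD replicates 2 or 4, and with rescaling outside mitochondrial genes), with an adjusted p of up to 0.108. The SNARE genes Snap29 and Ykt6, of the same step, fell. Snap29 went from 15.7 ± 0.517 to 11.3 ± 0.229 FPKM and Ykt6 from 97.5 ± 6.06 to 73.2 ± 4.98 FPKM (log2 changes -0.43 and -0.41). So members of one fusion step changed in opposite directions, as in the PI3-kinase complex.

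Of 8 tested further receptors 2 rose (25%, beside 22.7% of all tested genes) and none fell. Tex264 and Ccpg1, which rose, and Rtn3 and Sec62, which did not pass (log2 changes -0.11 and 0.07; adjusted p = 0.257 and 0.573, limma), are all known as receptors for endoplasmic reticulum. Tex264 went from 12.95 ± 0.855 to 19.2 ± 1.78 FPKM and Ccpg1 from 11.04 ± 0.767 to 15.4 ± 0.621 FPKM (SD, n = 4 each; log2 changes 0.53 and 0.45; adjusted p = 0.000424 and 0.000606, limma). Of 11 regulators 1 rose (9.09%) and 4 fell (36.4%), beside 22.7% and 26.8% of all tested genes. Tp53inp1 and Tp53inp2, proteins that bind ATG8 family members, both fell. Tp53inp1 went from 14.8 ± 0.9695 to 5.15 ± 0.632 FPKM and Tp53inp2 from 44.5 ± 3.06 to 31.2 ± 0.978 FPKM (log2 changes -1.36 and -0.50). Of 4 transcription regulators 1 rose (25%, beside 22.7% of all tested genes) and none fell. This was Mitf, the relative of Tfeb and Tfe3, named after its value was seen, at 2.96, 3.15, 3.88 and 4.32 FPKM in control and 6.14, 5.81, 7.596 and 4.77 FPKM in OGD (log2 change 0.62, limma adjusted p = 0.00379).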

How the data were processed

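Per the labels' protocols, total RNA was taken with a column kit and made into strand-specific libraries. The submitters' processing notes name Trimmomatic, FastQC and the rat build rn6 (Rnor_6.0). Aligner, FPKM program and annotation, and whether strand was used, were not given in the sources used here, so overlapping genes and close copies are uncertain. The authors deposited a single table of FPKM. It holds no counts, so no count model was run and no counting interval is given.

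A gene was kept when 4 or more of the 8 samples reached 1 FPKM (11149 of 32662). Its log2(FPKM + 1) values were fitted by group with limma 3.58.1 (R 4.3.3, empirical Bayes with a trend), tested on both sides and adjusted by Benjamini-Hochberg over all kept genes, with 0.05 as the threshold. Changes on this scale understate those of low genes. The fit was checked on simulated data. Members and lists were chosen with earlier results of these data known. Values per sample are given for the 8 members with the smallest p in each direction and the 2 most abundant of each role, and 4 other pathway genes are named per direction. Atg14, Atg4a, Atg5, Atg10, Gabarapl1, Mitf, Vps39, Vps41, Rtn3, Sec62 and the genes of the closing section were added after their values were seen.

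Promoters came from RefSeq (GRCr8) by symbol. Relative depth is the commonest ratio to control replicate 1 among genes of at most 0.5 FPKM. No pair of libraries was identical. Alternatives were 3 other scalings (quantile, median-centred, outside mitochondrial genes), filters of none and 5 FPKM, a pseudocount of 0.1, no trend, the replicate number as a block, and each sample left out. Python 3.11.15 with pandas 2.3.3, numpy 2.4.6 and matplotlib 3.10.9 did the rest.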

Additional observations from a re-analysis of the deposited data

Results flagged for a closer look

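Each tested member was examined for a lone library in control and in OGD, 84 groups of 4 in all. A gap of this size arises by chance in about 1 group in 20, which is 4.2 of 84, and 2 were found, both in OGD replicate 1. Atg5 was at 14.4 FPKM in that library and at 25.5 to 26.8 FPKM in the other OGD libraries. Atg4b was at 22.4 FPKM there and at 17.3 to 17.9 FPKM in the others.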

How the results depend on the processing

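Of the 19 called members, 13 kept direction and call under every one of the 16 alternatives, and 8 of the 23 others passed under at least 1. Rising members numbered 9 to 12 and falling members 8 to 10 under the alternatives that kept all samples, and 7 to 10 and 7 to 11 with a sample left out. With quantile normalization and with rescaling outside mitochondrial genes, 1 conjugation gene fell, 1 ATG8 gene rose and 1 cargo receptor rose, and the cargo median was -0.020 with quantile normalization. A filter of 5 FPKM, which tests fewer genes, left 1 falling conjugation gene and medians of -0.028 for conjugation, 0.021 for the PI3-kinase complex, -0.10 for initiation and 0.019 for transcription factors. With a sample left out, conjugation genes rising numbered 1 to 2 and falling 0 to 3, cargo receptors falling 0 to 1, fusion genes rising 0 to 1 and membrane supply genes rising 2 to 4. The medians then ran from -0.21 to 0.012 for conjugation, 0.020 to 0.18 for the PI3-kinase complex and -0.047 to 0.11 for initiation. Uncalled genes near 0 changed sign. Ambra1 was at -0.0080 with quantile normalization and -0.012 with median-centring, and -0.14 to 0.10 with a sample left out. Nbr1 was at 0.035 with quantile normalization and 0.0057 with rescaling. Epg5 was at 0.022 and 0.030 under the same settings, and -0.076 to 0.089 with a sample left out. Tfe3 was at -0.0014 with quantile normalization and -0.014 with median-centring, and -0.049 to 0.11 with a sample left out. Atg5 ran from -0.23 to 0.054 with a sample left out. Where no other cause is named, the cause was not tested. Whether samples with the same replicate number were paired is not known. Their deviations correlated at -0.22, 0.16, 0.01 and 0.09 for numbers 1 to 4, which cannot settle it. The best-matching OGD sample had the same number for control 4 and another number for controls 1 to 3. With the replicate number as a block, 10 members rose and 10 fell, Atg4a being added as lower (adjusted p = 0.0240, limma). Depth is unknown in reads, so low genes such as Atg10 and Ulk3 are the least precise.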

Other observations

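Like Tp53inp1 above, Vamp8 and Bcl2, on the pathway list but not members, had log2 changes larger in size than any member. Vamp8, a SNARE of lysosomal fusion, was at 1.995, 2.88, 4.48 and 6.56 FPKM in control and 0, 0, 0.882 and 3.46 FPKM in OGD, a log2 change of -1.46 (SE 0.45; adjusted p = 0.019, limma). Vamp8 passed the filter through the control libraries and OGD replicate 4, so its fall is a description of a low gene. OGD replicate 4 lay above control replicates 1 and 2, and the call was lost without control replicate 4, without OGD replicates 1 or 2 and with no filter (adjusted p up to 0.0570). The summed microglial markers were 271 to 422 FPKM in control and 97.7 to 172 FPKM in OGD in the same libraries, and their part in this fall was not tested. Stx17, the SNARE of the autophagosome itself, fell from 4.57 ± 0.504 to 3.02 ± 0.6700 FPKM (SD, n = 4 each), and Plekhm1, an adaptor between HOPS and ATG8 proteins, from 9.02 ± 0.696 to 6.496 ± 0.594 FPKM. The anti-apoptotic genes whose products bind Beclin 1 went in opposite directions. Bcl2 was at 2.11, 2.18, 3.68 and 2.51 FPKM in control and 0.759, 1.04, 0.493 and 1.197 FPKM in OGD (log2 change -0.95, adjusted p = 0.001, limma). It passed the filter through the control libraries and OGD replicates 2 and 4, so this too describes a low gene. Bcl2l1 was at 16.00, 14.9, 18.1 and 15.2 FPKM in control and 20.1, 19.3, 22.2 and 19.1 FPKM in OGD (log2 change 0.31, adjusted p = 0.008, limma).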
